A study of Homo sapiens with 6 samples.

Results

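The transcripts examined here encode the proteins that carry glucose into the cell, break it down to pyruvate, turn pyruvate into lactate or pass it to the mitochondrion, and carry lactate out. The group was set by name and holds 35 genes, all of which were found in the count table of 61541 genes and all of which passed the filter on low counts. Upon AZD4573 treatment its members moved in both directions, also within a role, as between the isoforms of hexokinase and of phosphofructokinase. BPGM fell the most (log2 fold change -1.52) and ENO3 rose the most (1.60). The transporters of glucose and lactate, hexokinase 2 (HK2) and PFKFB3, which makes an activator of phosphofructokinase, fell to between 0.417 and 0.681 times their DMSO levels, whereas the abundant enzymes from aldolase to pyruvate kinase rose by 1.14-fold to 1.39-fold relative to the other transcripts, a direction that turned when the libraries were scaled to mitochondrially encoded mRNAs.

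H9 is a cutaneous T-cell lymphoma cell line. It was wild type by its label and was treated with vehicle (DMSO, 3 libraries) or with AZD4573, a selective inhibitor of the transcriptional kinase CDK9 (3 libraries, 4 h by the labels, 50 nM by the figure legends of the study). All 6 libraries come from 1 line, and nothing states that the replicates were separate cultures, so that p-values measure the spread between these libraries, which may be technical. Total counts ranged from 70367303 to 76571157 with DMSO and from 52101868 to 63795185 with AZD4573. Of 10 T-cell markers, CD3D, CD3E, CD3G, CD5, LCK, ZAP70 and TRAC were each above 50 CPM in both groups, while CD2 lay below 0.2 CPM. CD4 had a mean of 3.83 CPM with DMSO and 6.98 CPM with AZD4573, and CD28 one of 5.85 and 4.35 CPM. Levels are in CPM, a read count relative to the TMM-scaled size of its library. The summed level of 5 myeloid markers stayed between 0.421 and 1.09 CPM and that of 4 NK-cell markers between 0.0702 and 0.295 CPM. Of the B-cell markers, CD79A lay between 55.0 and 60.9 CPM with DMSO and between 88.5 and 98.4 CPM with AZD4573. CD79B went the other way, from between 5.61 and 5.72 CPM to between 3.26 and 3.77 CPM, whereas MS4A1 was below 0.4 CPM in every library and PAX5 near 0. The 6 fibroblast and epithelial markers summed to between 156 and 172 CPM with DMSO and between 136 and 141 CPM with AZD4573, nearly all of it EPCAM. What part these markers have in the results below was not tested.

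Glycolysis converts glucose to pyruvate in a chain of enzymes of the cytosol. Flux through the chain is set mainly at uptake by the GLUT transporters, at the hexokinase, phosphofructokinase and pyruvate kinase steps, and at the export of lactate by the monocarboxylate transporters. Activated and malignant T cells take up much glucose and release much of its carbon as lactate even when oxygen is at hand. CDK9, the kinase of P-TEFb, releases paused RNA polymerase II, and short-lived transcripts are lost first when it is inhibited.

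Many of these genes are known targets of HIF-1, which binds the core ACGTG or GCGTG, and of MYC, which binds the E-box CACGTG, a sequence that contains ACGTG. The 250 bases upstream of the RefSeq start nearest to the main annotated transcript were searched on both strands in 32 members. That start lay 3283 bases from the main start in PFKM, 1627 in PGAM1, 747 in GAPDH, 422 in PFKP, 217 in HK1 and 204 in GPI. The windows of PFKM, PGAM1, GAPDH and PFKP lay wholly downstream of the main start. Of these off-start windows, that of GAPDH is counted below for ACGTG and CACGTG, and that of GPI for ACGTG. That of HK1 is counted for GCGTG, that of PFKM for the CCAAT box, and those of HK1, PFKP, PGAM1 and GAPDH for GGGCGG. SLC2A3, PFKFB2 and SLC16A1 were not in the promoter table used here. ACGTG was found in 16 of the 32, against 23.3% of 11422 promoters of tested genes, and CACGTG in 6 of the 32, against 8.94%. ACGTG stood in 6 of the 8 lower genes with a promoter, in 8 of the 20 higher genes and in 2 of the 4 genes that did not pass the test. GCGTG, the other form of the HIF-1 core, was found in 12 of the 32 (45.7% of all promoters). The TATA box TATAAA was found in 2 (5.45%). The CCAAT box was found in 15 (35.2%). The GC box GGGCGG was found in 26 (68.1%). The motif GATAAG was found in 0 (3.27%). A match of letters is not a bound site. The GC content of the 32 windows had a median of 71.2%, against 65.6% over all tested.

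The windows of 7 genes are shown as examples of each call: SLC2A1, HK2, PFKFB3 and SLC16A3 were lower, PGK1 and ALDOA were higher, and LDHA did not pass the test. These windows leave out BPGM and ENO3, which changed the most, and do not mirror the shares of ACGTG given above. They are RefSeq sequences of GRCh38.p14, written 5′ to 3′ on the strand of the gene, and capitals mark ACGTG on either strand. Of these, SLC2A1 has no match, while LDHA, with 2 E-boxes and a further ACGTG, has the most.
SLC2A1 (chr1:42958869-42959118, minus strand): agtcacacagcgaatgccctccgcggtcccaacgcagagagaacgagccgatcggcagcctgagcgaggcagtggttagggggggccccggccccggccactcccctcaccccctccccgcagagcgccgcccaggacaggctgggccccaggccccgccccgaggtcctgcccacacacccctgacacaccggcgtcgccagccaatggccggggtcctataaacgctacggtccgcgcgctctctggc
HK2 (chr2:74833877-74834126, plus strand): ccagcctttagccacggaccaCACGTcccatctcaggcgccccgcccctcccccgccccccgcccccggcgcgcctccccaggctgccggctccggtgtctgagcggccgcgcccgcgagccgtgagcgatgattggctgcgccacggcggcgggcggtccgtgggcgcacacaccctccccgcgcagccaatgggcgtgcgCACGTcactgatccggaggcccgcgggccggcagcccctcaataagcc
PFKFB3 (chr10:6202682-6202931, plus strand): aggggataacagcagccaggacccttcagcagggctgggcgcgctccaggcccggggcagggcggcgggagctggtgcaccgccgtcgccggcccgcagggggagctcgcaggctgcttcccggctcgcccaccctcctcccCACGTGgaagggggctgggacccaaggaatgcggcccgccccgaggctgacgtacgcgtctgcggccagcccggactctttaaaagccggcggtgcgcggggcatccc
SLC16A3 (chr17:82228792-82229041, plus strand): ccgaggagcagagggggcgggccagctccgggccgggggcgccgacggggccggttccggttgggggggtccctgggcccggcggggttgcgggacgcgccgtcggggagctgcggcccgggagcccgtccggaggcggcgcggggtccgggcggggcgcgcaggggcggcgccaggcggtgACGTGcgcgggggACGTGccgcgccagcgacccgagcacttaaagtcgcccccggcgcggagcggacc
PGK1 (chrX:78103998-78104247, plus strand): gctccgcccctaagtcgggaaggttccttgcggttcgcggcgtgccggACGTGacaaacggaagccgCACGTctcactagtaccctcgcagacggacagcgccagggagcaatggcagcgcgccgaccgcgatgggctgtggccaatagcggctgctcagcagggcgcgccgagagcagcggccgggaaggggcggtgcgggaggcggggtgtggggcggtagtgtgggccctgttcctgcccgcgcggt
ALDOA (chr16:30065510-30065759, plus strand): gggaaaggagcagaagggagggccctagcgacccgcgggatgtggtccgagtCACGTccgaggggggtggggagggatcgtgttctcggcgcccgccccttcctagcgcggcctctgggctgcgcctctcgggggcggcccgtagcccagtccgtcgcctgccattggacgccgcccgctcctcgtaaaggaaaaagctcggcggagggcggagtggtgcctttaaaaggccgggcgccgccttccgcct
LDHA (chr11:18394313-18394562, plus strand): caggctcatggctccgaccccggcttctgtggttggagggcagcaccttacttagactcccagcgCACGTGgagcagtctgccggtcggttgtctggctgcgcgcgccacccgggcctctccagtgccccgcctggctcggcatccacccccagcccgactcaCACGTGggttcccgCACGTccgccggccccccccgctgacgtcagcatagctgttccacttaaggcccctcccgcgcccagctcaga

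Treated and vehicle libraries were set against each other by the quasi-likelihood test of edgeR on TMM-normalised counts, and p-values were adjusted after Benjamini and Hochberg over the 17678 genes tested. A gene is called lower or higher at an adjusted p under 0.05. Of the 35 genes, 11 were lower, where the share of all genes called lower was 37.4%, and 20 were higher, where the share of all genes was 37.3%. LDHA, MPC1, PDK2 and PFKFB4 did not pass the test. TIGAR, one of the 20, is uncertain for an overlapping gene described below. With a fold change of at least 1.5 asked for in addition, 6 genes were lower (23.7% of all genes) and 3 were higher (22.7% of all genes). Read against all genes on the TMM scale, the group thus had a larger share of higher calls. Its share of lower calls lay close to that of all genes. With the fold asked for, both shares were smaller. The 6 were SLC2A1, SLC2A3, PFKFB3, BPGM, SLC16A1 and SLC16A3, and the 3 were ALDOC, ENO2 and ENO3. HK2 and PDHB, at 1.47-fold lower, lay just short of this fold. In 12 genes each AZD4573 library lay below each DMSO library (38.7% of all genes) and in 21 each lay above (39.0% of all genes). The median log2 fold change of the 35 genes was 0.23, against 0.03 for all genes tested.

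The scaling sets the zero of these changes. Transcripts encoded by the mitochondrial genome, which RNA polymerase II does not make, held 3.13% ± 0.0929 of counts in DMSO libraries and 4.85% ± 0.162 in AZD4573 libraries (SD, n = 3). When the libraries were scaled to these 13 mRNAs, 32 of the 35 genes were called lower (67.2% of all genes) and only ENO3 was called higher (12.1% of all genes). On this scale the group had a larger share of lower calls and a smaller share of higher calls than all genes, unlike on the TMM scale. The median of the group was then -0.51 on the log2 scale and that of all genes -0.71. ALDOC and ENO2 kept a positive log2 fold change (0.05 and 0.14) without passing the test. The plot of changes by role shows both scales. A lower or higher level below is meant relative to the TMM scale unless another is named. Fewer transcripts per cell and a shift in the rest of the RNA cannot be told apart in these bulk libraries.

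**Figure D1:**
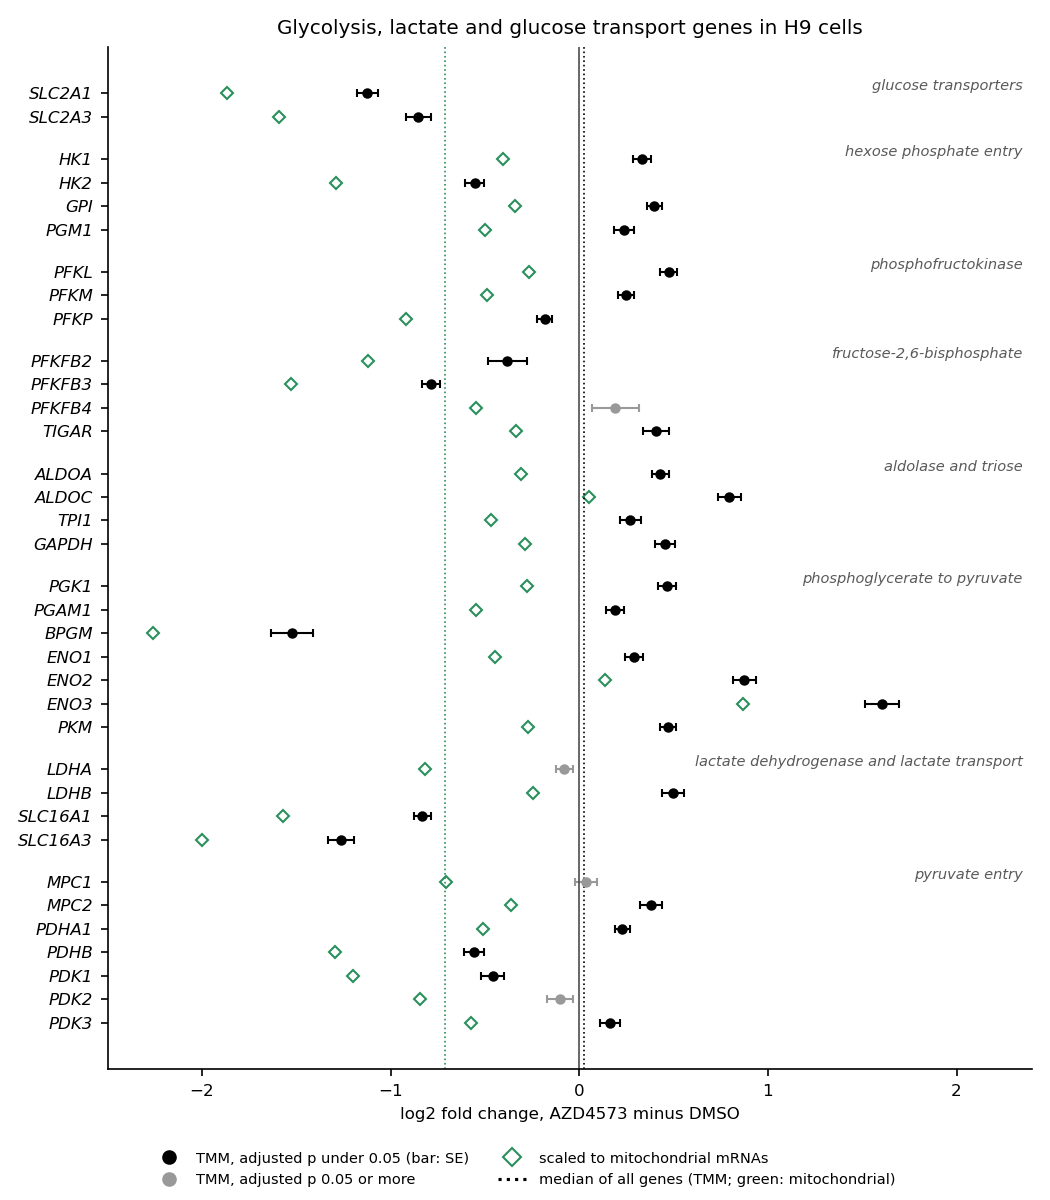
Log2 fold change (AZD4573 minus DMSO, x axis) of each of the 35 genes (y axis), grouped by role. Circles with SE bars are the TMM-normalised fit (grey: adjusted p of 0.05 or more), diamonds the same genes with the libraries scaled to mitochondrially encoded mRNAs, and dotted lines the medians of all genes, 0.03 and -0.71; transporters of glucose and lactate, PFKFB3 and BPGM lie farthest to the left and ENO3 farthest to the right in both, and of the 20 genes called higher under TMM, 17 turn negative under the mitochondrial scaling.

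Both glucose transporters fell. SLC2A1 (ENSG00000117394), which encodes GLUT1, the main carrier of basal glucose uptake, was at 97.2, 98.2 and 92.3 CPM in the DMSO libraries and at 40.6, 45.5 and 45.8 CPM in the AZD4573 libraries. The groups did not overlap, and the log2 fold change was -1.12 (SE 0.0551, adjusted p = 7.71e-10, edgeR quasi-likelihood). SLC2A3 (ENSG00000059804), which encodes the high-affinity carrier GLUT3, was at 20.6, 21.4 and 20.5 CPM with DMSO and at 11.1, 11.4 and 12.1 CPM with AZD4573, a log2 fold change of -0.85 (adjusted p = 5.06e-08, same test). The log2 ratio of SLC2A1 to SLC2A3 counts within a library went from 2.20 ± 0.0318 to 1.93 ± 0.0609 (SD, n = 3), without overlap of the groups. The 3 pseudogenes named after SLC2A3 held 52, 82 and 53 counts with DMSO, against 1620, 1564 and 1510 for the gene itself, and 102, 117 and 97 counts with AZD4573, against 565, 651 and 736. Their counts were thus higher where those of SLC2A3 were lower, reaching 18.1% of the gene, and reads may be shared between these near copies. With them added, the change of the log2 ratio of SLC2A1 to SLC2A3 was -0.43 in place of -0.27. Both genes stayed lower under each alternative run, with SLC2A1 at -1.87 and SLC2A3 at -1.59 under the mitochondrial scaling.

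The exporters of lactate moved the same way. SLC16A1 (ENSG00000155380), which encodes the monocarboxylate transporter MCT1, was at 192, 180 and 178 CPM with DMSO and at 107, 103 and 100.1 CPM with AZD4573, at a log2 fold change of -0.83 (SE 0.0455, adjusted p = 2.01e-09, edgeR quasi-likelihood). SLC16A3 (ENSG00000141526), which encodes MCT4, the low-affinity exporter of highly glycolytic cells, was at 28.5, 27.2 and 27.4 CPM with DMSO and at 12.5, 11.7 and 10.6 CPM with AZD4573, at a log2 fold change of -1.26 (SE 0.0702, adjusted p = 2.31e-09). All AZD4573 libraries lay below all DMSO libraries in both genes. In contrast, BSG, the chaperone that brings these transporters to the membrane, had a mean of 395 CPM in vehicle and 502 CPM in treated libraries (log2 fold change 0.34, adjusted p = 2.7e-05, same test), turning to -0.40 under the mitochondrial scaling, and BSG was picked out after its values were seen. Taken as a share of the whole library, counts in SLC2A1 and SLC2A3 together went from 0.0121% ± 0.000333 to 0.00535% ± 0.000258 (SD, n = 3).

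**Figure D2:**
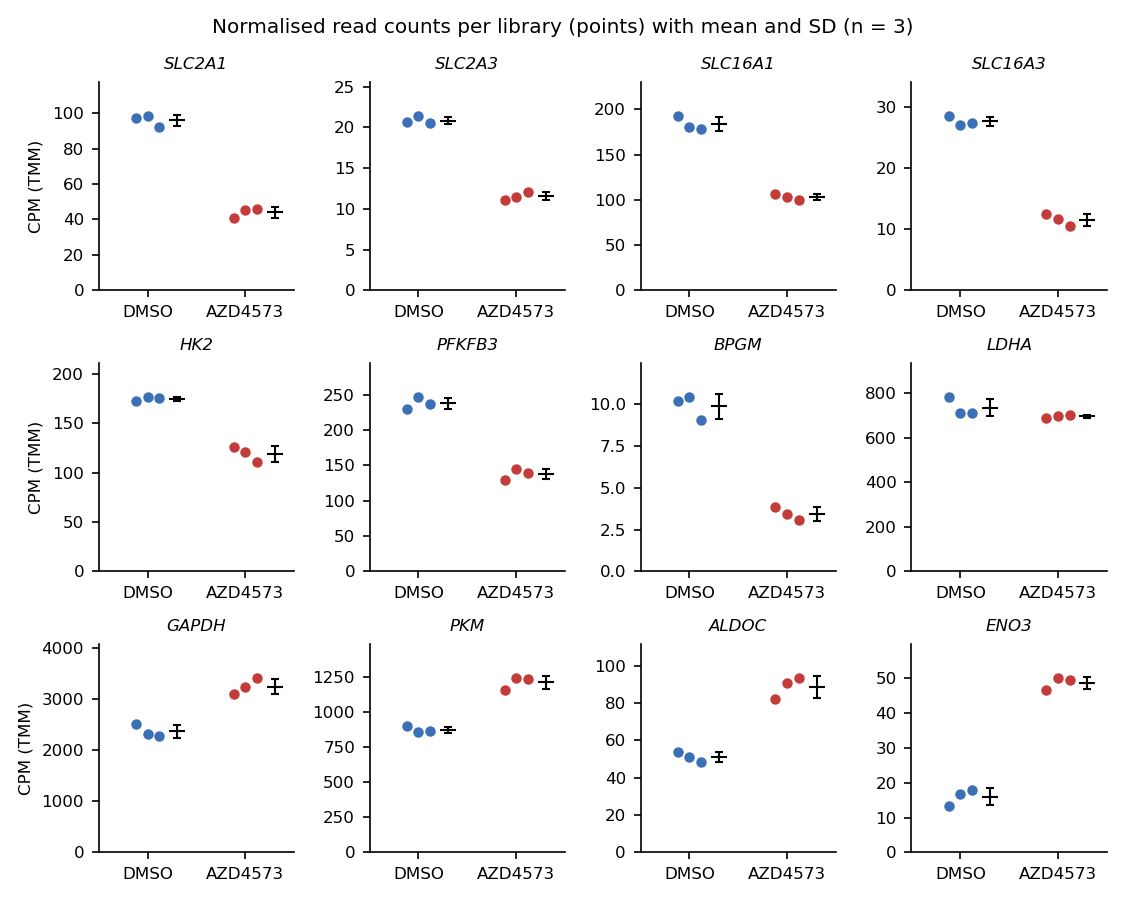
Normalised read counts (CPM after TMM scaling, y axis from 0) of 12 genes in each DMSO (blue) and AZD4573 (red) library, with mean and SD (n = 3) beside the points. SLC2A1, SLC2A3, SLC16A1, SLC16A3, HK2, PFKFB3 and BPGM show AZD4573 libraries below all DMSO libraries, LDHA nearly touches (702 against 712 CPM), and GAPDH, PKM, ALDOC and ENO3 lie above on this scale; of these 4, GAPDH and PKM turn negative under the mitochondrial scaling.

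The entry of glucose into the chain showed a change of isoform. HK2 (ENSG00000159399), the inducible hexokinase of proliferating cells, was at 172, 176 and 175 CPM with DMSO and at 126, 121 and 110.3 CPM with AZD4573, a log2 fold change of -0.55 (SE 0.0494, adjusted p = 2.33e-07, edgeR quasi-likelihood). HK1 (ENSG00000156515), the constitutive hexokinase, was at 141, 135 and 134 CPM with DMSO and at 161, 179 and 176 CPM with AZD4573, a log2 fold change of 0.33 (adjusted p = 2.37e-05), which turned to -0.41 under the mitochondrial scaling. The order of these isoforms reversed. Per kilobase of merged exon, HK2 made up 59.8% ± 0.944 (SD, n = 3) of the HK1 and HK2 signal with DMSO and 44.5% ± 2.72 (SD, n = 3) with AZD4573. Merged exons join all annotated transcripts of a gene, so that the size of such shares, here and below, depends on the annotation. GPI, which converts glucose 6-phosphate to fructose 6-phosphate, had a log2 fold change of 0.40, and PGM1, which links glycogen to this pool, one of 0.24. Both passed the test, and both turned negative (-0.34 and -0.50) under the mitochondrial scaling.

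Phosphofructokinase, the committing step, also shifted between isoforms. PFKP (ENSG00000067057), the platelet form and the most abundant of the 3 in H9 cells, was at 359, 362 and 371 CPM with DMSO and at 328, 324 and 310.2 CPM with AZD4573, a log2 fold change of -0.18 (adjusted p = 0.000966, edgeR quasi-likelihood). PFKL, the liver form, went from 262 ± 11.3 to 364 ± 9.55 CPM (SD, n = 3), or by a log2 fold change of 0.47. PFKM, the muscle form, went from 102 ± 4.16 to 121 ± 1.82 CPM (SD, n = 3), or by a log2 fold change of 0.25. PFKL and PFKM were higher under TMM and reversed to -0.26 and -0.49 under the mitochondrial scaling, under which PFKP stood at -0.92. Per kilobase, PFKP made up 51.9% ± 0.814 (SD, n = 3) of the signal of the 3 isoforms with DMSO and 41.8% ± 1.1 (SD, n = 3) with AZD4573, where PFKL made up 41.3% ± 1.11 (SD, n = 3), so that these isoforms came to overlapping shares.

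Fructose 2,6-bisphosphate, the strongest activator of phosphofructokinase, is made and broken down by the PFKFB enzymes, and TIGAR breaks it down. PFKFB3 (ENSG00000170525), the form with the highest kinase activity, made up 96.9% ± 0.141 (SD, n = 3) of the PFKFB signal per kilobase with DMSO. It was at 230.03, 246 and 236 CPM with DMSO and at 129.9, 145 and 139 CPM with AZD4573, a log2 fold change of -0.79 (SE 0.0479, adjusted p = 5.45e-09, edgeR quasi-likelihood). The groups lay far apart, and PFKFB3 stayed lower under each alternative run. PFKFB2 was also lower, at 6.82, 7.74 and 8.08 CPM with DMSO and 6.15, 5.25 and 5.98 CPM with AZD4573, a log2 fold change of -0.38. PFKFB4 was near 3 CPM in both groups, at a log2 fold change of 0.19 (adjusted p = 0.183, same test).

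TIGAR was at 14.8, 15.2 and 14.2 CPM with DMSO and at 18.5, 20.7 and 19.4 CPM with AZD4573, a log2 fold change of 0.41 (adjusted p = 9.11e-05, edgeR quasi-likelihood). The value depends on how an overlapping gene is treated. The gene ENSG00000285901, on the same strand, shares 1711 of the 9444 merged exon bases of TIGAR, and it went from 6.74 CPM with DMSO to 0.0382 CPM with AZD4573 on average. With the counts of both genes added, an alternative chosen after seeing the data, the level was 21.5 ± 1.47 CPM in vehicle and 19.6 ± 1.11 CPM in treated libraries (SD, n = 3). The log2 fold change was then -0.13 (adjusted p = 0.1, same test), and the groups overlapped. Whether reads of one gene were assigned to the other was not tested. TIGAR was also lower (-0.33) under the mitochondrial scaling, and no direction is given for it here.

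The enzymes of the lower chain, which are among the most abundant transcripts of the group, rose relative to other transcripts and fell relative to the mitochondrial ones. GAPDH (ENSG00000111640), which oxidises glyceraldehyde 3-phosphate, was at 2518, 2309.9 and 2279 CPM with DMSO and at 3099, 3231 and 3407 CPM with AZD4573, a log2 fold change of 0.45 (SE 0.0516, adjusted p = 2.71e-06, edgeR quasi-likelihood). PKM (ENSG00000067225), pyruvate kinase, was at 899, 856 and 862 CPM with DMSO and at 1155, 1238 and 1233 CPM with AZD4573, a log2 fold change of 0.47 (adjusted p = 3.92e-07). In both genes the groups did not overlap. ALDOA, TPI1, PGK1, PGAM1 and ENO1, which carry the steps from aldolase to enolase, had log2 fold changes from 0.19 (PGAM1) to 0.46 (PGK1), all with an adjusted p under 0.05. All 7 genes reversed under the mitochondrial scaling, to between -0.55 (PGAM1) and -0.27 (PKM). For PGAM1 the call was also lost when scaled by library size alone (0.09, adjusted p = 0.0862).

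Since these enzymes carry most of the reads, the summed share of the 35 genes went from 1.16% ± 0.0319 to 1.31% ± 0.0282 (SD, n = 3) of all counts although the transporters fell. Aldolase, TPI1 and GAPDH together held 0.372% ± 0.0155 of counts in vehicle and 0.466% ± 0.0158 in treated libraries (SD, n = 3). The steps from PGK1 to PKM took 0.433% ± 0.0143 and 0.519% ± 0.0124 (SD, n = 3). A share of the library falls under the same limit of scaling as the fold changes. The 65 pseudogenes named after GAPDH held at most 0.0592% as many counts as GAPDH, and the named pseudogenes of the members other than SLC2A3 held at most 0.471%. ENSG00000285043, a gene on the same strand that shares 1639 of the 3829 exon bases of ALDOA, rose from 97.0 to 138 CPM on average, and ALDOA with these counts added had a log2 fold change of 0.44 in place of 0.43.

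Outside this common level lay the minor isoforms and BPGM. ENO3 (ENSG00000108515), muscle enolase, rose the most of the 35 genes, from 13.3, 16.8 and 17.9 CPM with DMSO to 46.6, 49.9 and 49.4 CPM with AZD4573, a log2 fold change of 1.60 (SE 0.089, adjusted p = 2.25e-09, edgeR quasi-likelihood). It was the only gene of the group that was called higher under the mitochondrial scaling as well (0.87, adjusted p = 1.19e-07). ENO2, neuronal enolase, went from 21.1 ± 1.16 to 38.7 ± 1.99 CPM (SD, n = 3), or by a log2 fold change of 0.88. ALDOC, brain aldolase, went from 51.1 ± 2.85 to 88.7 ± 5.98 CPM (SD, n = 3), or by a log2 fold change of 0.80. These remained small parts of their families. Per kilobase, ENO3 went from 0.859% ± 0.164 to 2.08% ± 0.0106 (SD, n = 3) of the enolase signal and ALDOC from 10.2% ± 0.429 to 12.7% ± 0.315 (SD, n = 3) of the ALDOA and ALDOC signal.

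BPGM (ENSG00000172331), which diverts an intermediate of the chain to 2,3-bisphosphoglycerate, fell the most, from 10.2, 10.4 and 9.01 CPM with DMSO to 3.87, 3.42 and 3.05 CPM with AZD4573. The log2 fold change was -1.52 (SE 0.11, adjusted p = 3.01e-08, edgeR quasi-likelihood), and all AZD4573 libraries lay well below all DMSO libraries. On the strand of ENO3, RNF167 ends 2870 bases upstream and had a log2 fold change of 0.66. Beside ALDOC on its strand, SPAG5 ends 617 bases upstream with a log2 fold change of -0.31, ENSG00000258472 ends 3064 bases upstream with one of 2.05, and RSKR overlaps the gene with one of 1.16. LRRC23 overlaps ENO2 on its strand and had a log2 fold change of 0.70, and ATN1, which starts 765 bases downstream, one of -0.19. Whether reads from neighbouring genes take part in these rises was not tested. ENO3 shares 111 of its 4292 exon bases with PFN1 on the opposite strand and ALDOC 296 of 2612 with ENSG00000265168, which counting at RSEM's default setting does not separate by strand. The same limit holds for 19 of the 35 genes. The most bases were shared by PDK2 (2113 of 5471, SAMD14), PDHA1 (956 of 4953, MAP3K15) and MPC2 (575 of 2638, DCAF6). What part reads of opposite-strand genes have in the values was not tested.

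**Figure D3:**
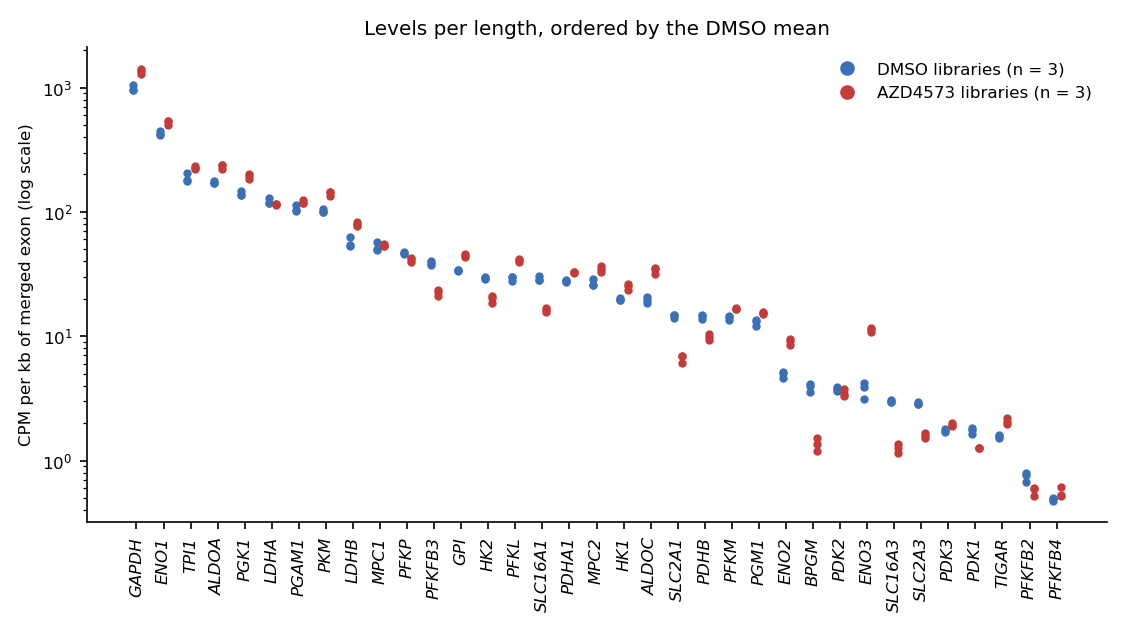
Levels of the 35 genes per kilobase of merged exon (CPM per kb, log y axis) in each DMSO (blue) and AZD4573 (red) library, ordered by the DMSO mean (x axis). Merged exons join all annotated transcripts, so that the order between genes depends on the annotation. GAPDH (989 with DMSO) and ENO1 (428) stand above the rest, PFKFB4 (0.487) is lowest, and PFKFB3 moves by the most ranks, from 12 to 18, on the TMM scale, a scale on which most of the rises turn negative when set against mitochondrial mRNAs.

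Per kilobase of merged exon, levels with DMSO spanned from 0.487 ± 0.0113 CPM per kb for PFKFB4 to 989 ± 54.2 for GAPDH (SD, n = 3). Merged exons join all annotated transcripts and can exceed the expressed mRNA, with 8572 bases for PKM and 2396 for GAPDH. The order between genes therefore depends on the annotation, and expressed lengths were not determined. ENO1 followed GAPDH at 428 ± 20.4 CPM per kb, then TPI1 (188 ± 15.3), ALDOA (173 ± 3.64), PGK1 (140.1 ± 7.40), LDHA (122 ± 6.57), PGAM1 (106 ± 6.39) and PKM (102 ± 2.7). Among these 8, only the neighbours PGAM1 and PKM had overlapping DMSO libraries. With AZD4573, PKM moved from rank 8 to rank 6 and LDHA from rank 6 to rank 8, while SLC2A1 went from rank 21 to rank 26 and ENO3 from rank 28 to rank 23. Across the 35 genes, the log2 fold change and the log10 of the gene span had a Spearman rho of -0.261, and all 13423 protein-coding genes tested had one of -0.026. With the DMSO level the rho was 0.252 over the 35 genes and -0.199 over all protein-coding genes. These describe genes of the same libraries, which share depth and scaling, and each is weak. The 11 lower genes had a median span of 46.7 kb and the 20 higher genes one of 23.9 kb, with ranges that overlap widely.

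Lactate dehydrogenase interconverts pyruvate and lactate, and its A and B subunits responded unequally. LDHA (ENSG00000134333) was at 781, 713 and 712 CPM with DMSO and at 688, 697 and 702 CPM with AZD4573, at a log2 fold change of -0.08 (SE 0.0453, adjusted p = 0.127, edgeR quasi-likelihood). LDHB (ENSG00000111716) was at 186, 163 and 159.7 CPM with DMSO and at 230.07, 239 and 248 CPM with AZD4573, at a log2 fold change of 0.50 (SE 0.057, adjusted p = 3e-06), which turned to -0.24 under the mitochondrial scaling. The log2 ratio of LDHA to LDHB counts fell in each AZD4573 library, from 2.12 ± 0.0455 to 1.54 ± 0.0416 (SD, n = 3). LDHA thus made up 68.2% ± 0.685 of the signal of these subunits per kilobase with DMSO and 59.0% ± 0.697 (SD, n = 3) with AZD4573. LDHA was called lower when scaled by library size alone (-0.18), with low counts kept (-0.12) and under the mitochondrial scaling (-0.82).

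At the entry of pyruvate into the mitochondrion, the members were mixed. PDHB, the beta subunit of the pyruvate dehydrogenase E1 component, was at 70.3, 68.9 and 65.3 CPM with DMSO and at 48.9, 44.0 and 46.3 CPM with AZD4573, a log2 fold change of -0.56 (SE 0.0537, adjusted p = 5.29e-07, edgeR quasi-likelihood). PDHA1, the alpha subunit of the same component, went from 138 ± 2.29 to 162 ± 1.45 CPM (SD, n = 3), or by a log2 fold change of 0.23 that turned to -0.51 under the mitochondrial scaling. The subunits, which pair in the enzyme, thus drew apart, with a log2 ratio of PDHA1 to PDHB counts of 1.02 ± 0.0316 with DMSO and 1.80 ± 0.0878 (SD, n = 3) with AZD4573. PDK1, a kinase that switches the complex off and a known HIF-1 target, fell from 25.7 ± 1.31 to 18.7 ± 0.0308 CPM (SD, n = 3), or by a log2 fold change of -0.46. PDK2 (-0.10, adjusted p = 0.188, same test) had groups that overlapped, and was called lower when scaled by library size alone (-0.21, adjusted p = 0.0126) and under the mitochondrial scaling (-0.84, adjusted p = 4.26e-08). PDK3 was higher by 0.16 (adjusted p = 0.0131), a call lost without DMSO replicate 2 (0.15, adjusted p = 0.07), without AZD4573 replicate 3 (0.14, adjusted p = 0.0569) with low counts kept (0.12, adjusted p = 0.135) and when scaled by library size alone (0.06, adjusted p = 0.334). Of the mitochondrial pyruvate carrier subunits, MPC2 had a log2 fold change of 0.38 and MPC1 one of 0.03 (adjusted p = 0.603). The values of PDHA1, PDK2 and MPC2 fall under the limit of opposite-strand overlap given above.

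Ratios within a library do not depend on how the libraries are scaled to each other. In 12 pairs of related transcripts, the log2 ratio of counts was higher with AZD4573 in 6 and lower in 6, and in none did the AZD4573 libraries overlap the DMSO libraries, as the plot of ratios within each library shows. No share over other gene pairs was computed to set beside this count. Of single genes, 38.7% had all AZD4573 libraries below and 39.0% all above the DMSO libraries, so that separation was common in these data. The members were chosen with earlier results of these data known. The exact permutation test (two-sided) gave p = 0.1 for each pair, the smallest value that 3 against 3 libraries allow, and 0.1 after adjustment over the 12 pairs, so that no pair can pass a threshold of 0.05 in this test. The largest changes of the log2 ratio were those of PFKFB3 to PFKFB4 (-0.98), HK2 to HK1 (-0.89), PDHA1 to PDHB (0.79), PFKL to PFKP (0.66), PDK1 to PDK3 (-0.62) and ENO2 to ENO1 (0.58). The smallest was that of SLC2A1 to SLC2A3 (-0.27). Across the pairs, the change of the ratio exceeded the SD among libraries of either group.

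**Figure D4:**
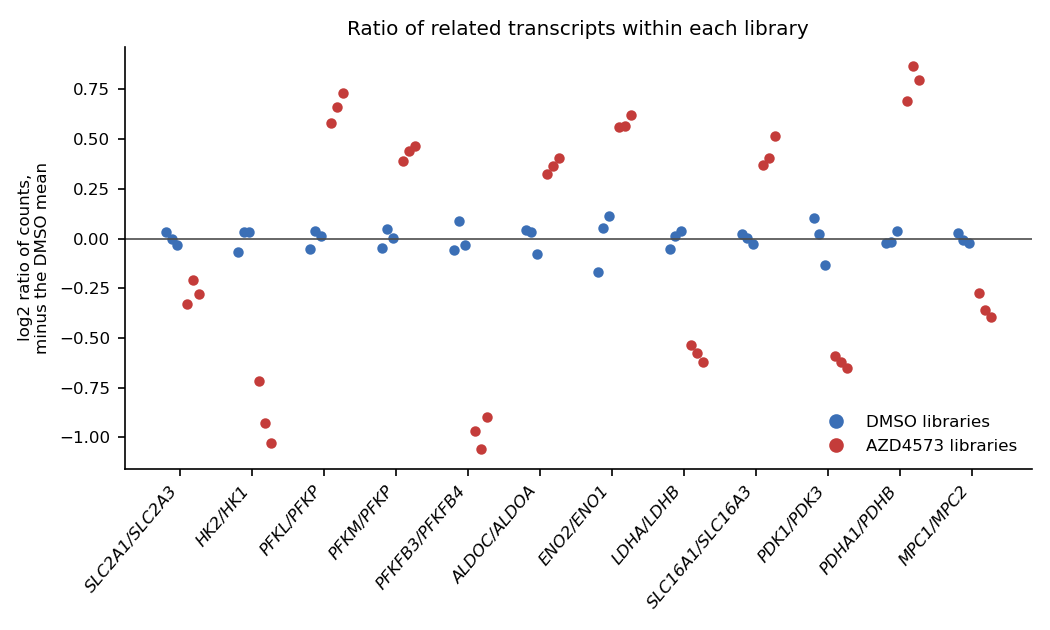
Log2 ratio of the counts of 12 pairs of related transcripts (x axis) in each library, minus the mean of the DMSO libraries (y axis), with DMSO in blue and AZD4573 in red. The red points lie clear of the blue points in all 12 pairs, farthest for PFKFB3/PFKFB4 (-0.98) and HK2/HK1 (-0.89) downwards and for PDHA1/PDHB (0.79) upwards. How often other gene pairs separate in this way was not computed.

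Genes around the chain were examined through lists written from general knowledge, but with earlier results of these data known. Beside the counts that follow, 37.4% of all genes tested were lower and 37.3% higher under TMM. Under the mitochondrial scaling these shares were 67.2% and 12.1%. The lists were not tested as sets. Of 14 tested isoforms and relatives outside the group (27 listed), 8 were lower and 6 higher, and none of the 6 reached 10 CPM (8 and 5 under the mitochondrial scaling). The glucose transporter SLC2A6 fell the most of those above this level, from 11.9 ± 0.667 to 3.15 ± 0.33 CPM (SD, n = 3), or by a log2 fold change of -1.92. Of 6 tested partners of pyruvate dehydrogenase, 4 were lower and 1 higher. The phosphatase PDP1, which switches the complex on, had a log2 fold change of -1.32 and its regulatory subunit PDPR one of 0.21 (-0.53 under the mitochondrial scaling). Of 8 pentose phosphate genes, 5 were higher and 1 lower under TMM, against 0 and 7 under the mitochondrial scaling. The epimerase RPE fell to 0.346 times its DMSO level, while H6PD, a glucose 6-phosphate dehydrogenase of the endoplasmic reticulum, had a log2 fold change of 0.69 that turned to -0.05 under the mitochondrial scaling. Of 10 genes of gluconeogenesis and glycogen, 4 were higher and 3 lower under TMM, against 0 and 7 under the mitochondrial scaling. PCK2, the mitochondrial PEP carboxykinase, had a log2 fold change of 0.81 (0.07 under the mitochondrial scaling) and glycogenin GYG1 one of -0.42.

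Among 13 tested regulators of glucose use, 6 were lower and 4 higher (12 and 1 under the mitochondrial scaling). The shares of all genes were 37.4% lower and 37.3% higher, and 67.2% and 12.1% under the mitochondrial scaling. TXNIP, which promotes the removal of GLUT1 from the membrane and slows glucose uptake, rose from 114, 115 and 112 CPM with DMSO to 255, 257 and 241 CPM with AZD4573, a log2 fold change of 1.15 (SE 0.0418, adjusted p = 7.52e-11, edgeR quasi-likelihood). TXNIP stayed positive at 0.41 under the mitochondrial scaling, and its groups lay far apart. EGLN1, the main oxygen-dependent prolyl hydroxylase that marks HIF-1 alpha for decay, fell from 23.4 ± 1.11 to 6.12 ± 0.734 CPM (SD, n = 3), or by a log2 fold change of -1.94 (adjusted p = 4.01e-10). Of 15 tested hypoxia-response genes outside the chain, 8 were higher and 6 lower under TMM, against 1 and 12 under the mitochondrial scaling. BNIP3L, a receptor for mitophagy, had a log2 fold change of 0.79 (0.05 under the mitochondrial scaling) and the histone demethylase KDM3A one of -1.77. The medians of the lists were -0.06 for the regulators and 0.35 for the hypoxia-response genes, against 0.03 for all genes tested. The 13 mitochondrially encoded mRNAs were all higher under TMM, led by MT-CO2 with 0.78, and by construction near 0 in the scaling built on them.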

How the data were processed

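RNA-seq of H9 cells covered 3 DMSO and 3 AZD4573 libraries. According to the supplemental methods and the submitters' processing notes, the authors trimmed reads with cutadapt 2.3, aligned them to GRCh38 with STAR 2.7.8a and deposited expected counts per gene from RSEM 1.3.3 at default parameters, in whole numbers and without normalization. The labels name poly(A) RNA, whereas the supplemental methods name rRNA depletion. Per-sample columns outside the 6 libraries: 0. The 5 reporter sequences were left out. Of the 5 B-cell markers, 1 is not reported here.

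Members were matched by symbol, and with their lists were chosen with earlier results of these data known. In R 4.3.3, edgeR 4.0.16 kept genes by its filter (minimum count 10), normalized by TMM and tested by quasi-likelihood, with Benjamini-Hochberg adjusted p-values and no replicate block. The SE is the log2 fold change divided by the root of the F statistic. All 35 genes are named, and of each other list the largest rise and fall among genes past an adjusted p of 0.05 with at least 10 CPM in the higher group. Alternatives were RLE factors, library size only, scaling to 13 mitochondrial mRNAs, no filter, 10 or more counts in every library, leaving out each library, blocking on replicate number, DESeq2 1.42.0, overlapping genes added and a fold of at least 2. The procedure was tested on simulated counts in which few genes changed, equally up and down, so that the scaling could not be checked by it. No library repeated another of its group (chi-square divided by its degrees of freedom, 5.51 to 20.5). A count of 0 allows up to 0.059 CPM (3 counts) in the smallest library, for counting error only, since PCR copies are not told apart. Exon positions came from the GENCODE annotation of GRCh38 and promoters from RefSeq on GRCh38.p14.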

Additional observations from a re-analysis of the deposited data

How the results depend on the processing

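The scaling moved the calls most. Scaled to the mitochondrially encoded mRNAs, 11878 of all genes were lower and 2144 higher, or 9433 and 1769 at a fold of at least 1.5. Of the 35 members, 32 were lower and 1 higher, or 14 and 1 at this fold. In the other lists, the mitochondrial scaling gave 0 higher partners of pyruvate dehydrogenase, 7 lower and 0 higher pentose phosphate genes, 7 and 0 genes of gluconeogenesis and glycogen, 12 and 1 regulators, 12 and 1 hypoxia-response genes, and 1 and 0 mitochondrial mRNAs. The median of the members was then -0.51, against 0.13 with library size only and 0.19 without a filter. Relative to all genes, it was 0.073 without a filter and 0.25 with at least 10 counts in every library. The median of all genes was -0.71 under the mitochondrial scaling and -0.08 with library size only, and the median of the members relative to it was 0.20 in both. Without a filter the median of all genes was 0.11, higher than in the main comparison, while that of the members was lower. At a fold of at least 2, a stricter rule by construction, 2450 genes and 3 members were lower, and 2643 genes and 1 member higher.

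With library size only, 2 genes of gluconeogenesis and glycogen and 2 regulators were higher. With at least 10 counts in every library, which tests fewer genes, 2 of the other isoforms and 2 partners of pyruvate dehydrogenase were higher. Leaving out single libraries gave 6367 to 6637 lower and 6241 to 6577 higher genes. Then 11 members were lower and 19 or 20 higher, and 1 or 2 partners of pyruvate dehydrogenase were higher, the second without DMSO replicate 1. The relative median of the members then ranged from 0.15, without DMSO replicate 3, to 0.21.

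Of 455 values of single members, 420 were called as before, 7 were weaker, 5 stronger and 23 reversed. Setting the mitochondrial scaling aside, 408 of 420 were called as before and 4 reversed. Under the mitochondrial scaling, the log2 fold change reversed for HK1 (-0.41), GPI (-0.34), PGM1 (-0.50), PFKL (-0.26), PFKM (-0.49), PFKFB4 (-0.55), TIGAR (-0.33), ALDOA (-0.31), TPI1 (-0.47), GAPDH (-0.29), PGK1 (-0.28), PGAM1 (-0.55), ENO1 (-0.45), PKM (-0.27), LDHB (-0.24), MPC1 (-0.71), MPC2 (-0.36), PDHA1 (-0.51) and PDK3 (-0.58). MPC1 also reversed with library size only (-0.069), without a filter (-0.0088), and without DMSO replicate 2 or 3 (-0.0086 and -0.016), where leaving out 1 library gave values from -0.016 to 0.096. TIGAR reversed with its overlapping gene added (-0.13).

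The replicate numbers gave no pairing. Same-numbered libraries had correlations of -0.00724, 0.0707 and -0.0203 in their deviations from group means, and replicate 2 alone correlated best with its own number. With the replicate block, 11 members were lower and 20 higher, and no member changed its call. The changes of the 12 ratios kept their direction in each alternative run, and the difference within replicate numbers, which equals the main value by construction, was -0.89 for HK2 to HK1.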
